A study of Mus musculus with 12 samples.

Results

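The 7 genes described here belong to nitric oxide, arginine and itaconate metabolism, and they were followed across 4 groups of mouse BMDMs (bone marrow-derived macrophages, grown from marrow cells in culture). The genes were Slc7a1, Slc7a2, Nos2, Gch1, Ass1, Odc1 and Acod1, chosen by symbol after the gene identifiers of the count table had been mapped through a GENCODE annotation of GRCm38. They were 7 of 48526 genes in the table, and 7 of 7 passed the filter on low counts that left 15523 genes for testing. All 7 are protein-coding genes.

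The study asked what the removal of HSS9, an enhancer upstream of Tnf, does to macrophages at rest and after LPS (lipopolysaccharide, the outer membrane component of Gram-negative bacteria that macrophages sense as infection). The 4 groups were WT UT and WT LPS, from HSS9+/+ controls, and KO UT and KO LPS, from mice homozygous for the HSS9 deletion. UT cells received PBS and LPS cells received LPS, each for 6 hr, after 6 d of culture in medium with 20% L929-conditioned medium and 10% serum. There were 3 libraries of total RNA in each group, made with a globin depletion kit from young adult male mice. The labels call the controls littermates, whereas the methods describe KO mice bred as homozygous pairs and mention purchased C57BL/6 mice, so differences of litter or substrain and the deletion cannot be told apart. No label says how many mice gave the cells, so p-values measure the spread between these libraries, which may be technical.

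L-arginine enters macrophages through cationic amino acid carriers. Inducible nitric oxide synthase turns it into nitric oxide, which kills microbes, and citrulline, which can be rebuilt into arginine. Arginine is also the source of ornithine, the precursor of polyamines. Itaconate, made from the citric acid cycle intermediate cis-aconitate, is an antimicrobial and immune-regulating metabolite of activated macrophages.

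Library totals ranged from 26154533 to 36423921 counts. The levels below are CPM, that is, counts relative to the library total after TMM scaling. Called genes are those with a log2 fold change above 1 in size and an edgeR adjusted p below 0.05. Tnf, the gene downstream of the deleted enhancer, was lower in KO than in WT libraries under both treatments, with log2 differences of -0.66 without LPS (edgeR adjusted p = 1.29e-06) and -1.04 after LPS (edgeR adjusted p = 2.76e-10). All 8 macrophage markers passed the filter, their summed level was 24471 to 33820 CPM over the 12 libraries, and 0 of them were called between genotypes. Markers of other cells were sparse. Neutrophil markers summed to 20.5 to 22.2 CPM in WT UT and 43.1 to 48.8 CPM in KO UT, where 5 of the 7 tested were called higher, while Ly6g was at 0 in every library. The B cell list summed to 19.2 to 21.8 CPM in WT UT and 38.2 to 40.2 CPM in KO UT, and stromal markers to 21.8 to 23.9 CPM in WT LPS and 26.5 to 28.5 CPM in KO LPS. Most of the stromal sum was Pdgfrb, at a mean of 19.8 CPM in WT LPS and 19.7 CPM in KO LPS, while the other 4 tested (Col1a1, Col1a2, Col3a1 and Dcn) were called 2.27-fold to 2.98-fold higher in KO LPS. Their means in WT LPS were low, at 0.29 to 1.05 CPM. Dcn alone was also called higher in KO UT, 2.73-fold (edgeR adjusted p = 0.0215), with libraries that overlapped between genotypes. Small structured RNAs took 4.30% to 4.48% of counts in WT UT, 8.04% to 9.14% in KO UT, 4.97% to 7.71% in WT LPS and 4.33% to 4.43% in KO LPS. The part of these cells in the differences below was not tested. A fit on protein-coding genes alone, which leaves out the small RNAs and not the other cells, gave log2 differences between KO UT and WT UT of -1.16 for Acod1, -1.15 for Ass1 and -0.97 for Slc7a2, against -1.16, -1.16 and -0.98 with all genes. This fit changes only the genes that enter the scaling and the spread, so a library difference that goes with small RNAs would remain.

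Upstream sequence is shown for Acod1 and Ass1, the 2 genes called both between KO UT and WT UT and in the difference between the LPS responses of the genotypes. Each run is the 250 bases before the RefSeq start site, 5′ to 3′ on the gene's strand, from RefSeq on GRCm38.p6. RefSeq windows were matched for 5 of the 7 genes (Slc7a1, with 2 start sites, Gch1, Ass1, Odc1 and Acod1), giving 6 windows. Capitals mark matches on either strand to short forms of known motifs. The NF-kB form searched was GGG and CC with any 5 bases between them, the ISRE form GAAA and GAAA with any 2 between, the GAS form TTC and GAA with any 3 between, AP-1 TGA and TCA with any 1 between, the E-box CACGTG and the TATA box TATAAA. A match is a description of letters and not evidence of binding. The GENCODE starts of Acod1 (103046977) and Ass1 (31470207) lie inside these RefSeq windows. The last bases of each run, with the TATA box of Acod1 and the E-box of Ass1, are thus within the GENCODE gene.
Acod1, chr14:103046762-103047011 (+): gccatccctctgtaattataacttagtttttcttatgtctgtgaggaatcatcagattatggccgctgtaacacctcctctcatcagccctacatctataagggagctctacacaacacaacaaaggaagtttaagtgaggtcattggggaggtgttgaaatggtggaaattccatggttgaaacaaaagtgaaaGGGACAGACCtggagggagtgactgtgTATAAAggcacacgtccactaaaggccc
Ass1, chr2:31470020-31470269 (+): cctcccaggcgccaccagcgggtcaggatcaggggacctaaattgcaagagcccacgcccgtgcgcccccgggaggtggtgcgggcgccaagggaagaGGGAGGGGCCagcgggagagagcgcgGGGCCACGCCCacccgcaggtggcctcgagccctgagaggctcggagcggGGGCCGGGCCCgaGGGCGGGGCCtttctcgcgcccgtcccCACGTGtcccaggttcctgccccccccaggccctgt

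The Acod1 window held 1 match to the NF-kB form, GGGACAGACC, from base -55 to -46 before the start site, and 1 TATA box from -28 to -23. The Ass1 window held 6 matches to the NF-kB form, which overlap into 4 stretches, and 1 E-box from -36 to -31, but no TATAAA. Both windows thus shared the NF-kB form, which also occurred in 45.8% of 32851 promoter windows of this length, whereas the TATA box occurred in 12.4% and the E-box in 6.02%. Over the 6 windows the NF-kB form had 7 matches at the upstream start site of Slc7a1, 0 at its downstream start site, 5 in Gch1 and 1 in Odc1. The ISRE form, present in 2.98% of windows, was in none of the 6. AP-1, present in 6.75%, had 1 match at the upstream start site of Slc7a1, and GAS, present in 7.02%, had 1 at the downstream start site.

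The response to LPS is given first. After 6 hr of LPS, 6 of the 7 genes were called higher in WT cells and 6 in KO cells. They included Nos2, which passed the filter only through the LPS libraries, and without it the counts were 5 of 6 in each. The background for any call was 37.8% of genes in WT cells (19.1% called higher and 18.7% lower) and 37.0% in KO cells (17.7% higher and 19.3% lower). Odc1 was the exception in both, and fell by less than the fold limit. The median log2 change of the 6 genes other than Nos2 was 4.17 in WT and 4.47 in KO cells, against 0.05 and -0.06 over all genes tested. In bulk RNA, fewer cells of a type and less RNA per cell cannot be told apart, here and in every result below.

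**Figure D1:**
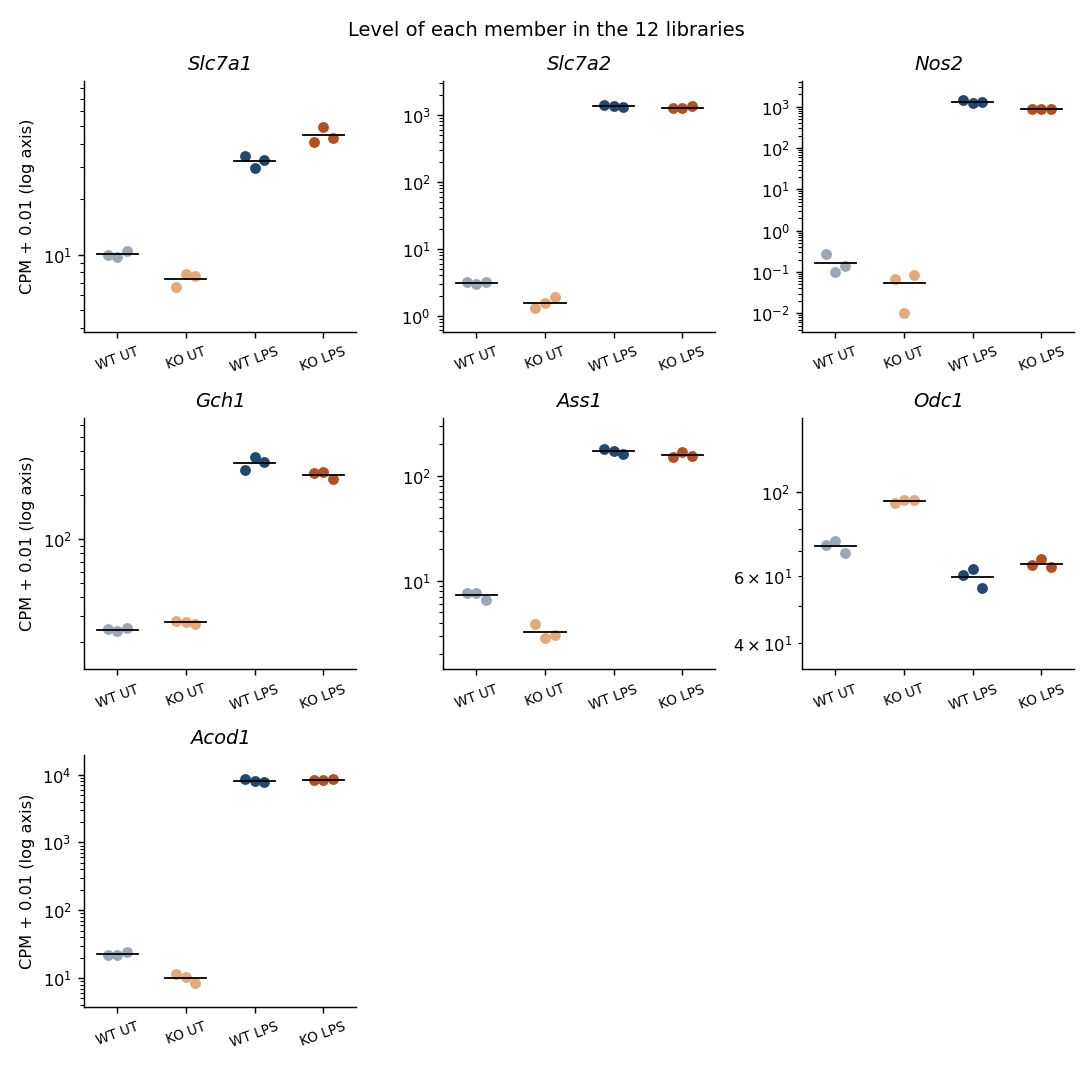
Level of each of the 7 genes in the 12 libraries, as CPM on a log axis, with 1 point for each library of the 4 groups and a line for the group mean. A small offset named on the axis keeps libraries at 0 in view. The LPS libraries sit far above the UT libraries for every gene except Odc1, and the KO UT libraries sit below the WT UT libraries for Acod1, Ass1, Slc7a2 and Slc7a1.

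Arginine import was measured by 2 carriers. Slc7a2 (ENSMUSG00000031596.15, chromosome 8, 40862396 to 40922308, + strand) encodes CAT2, the cationic amino acid transporter that macrophages induce on activation. Its level was 3.23, 2.91 and 3.17 CPM in WT UT, 1.27, 1.53 and 1.87 CPM in KO UT, 1412, 1336 and 1292 CPM in WT LPS, and 1268, 1260 and 1341 CPM in KO LPS. LPS raised it by 8.76 on the log2 scale in WT cells (SE 0.0883, edgeR adjusted p = 1.43e-25) and by 9.68 in KO cells (SE 0.0955, edgeR adjusted p = 8.38e-26), which is 434-fold and 820-fold. All 3 KO UT libraries were below the WT UT libraries, whereas the LPS groups overlapped. The lincRNA Gm26584 on the opposite strand overlaps its exons and had 0 to 20 counts per library.

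Without LPS, Slc7a2 was lower in KO by a log2 difference of -0.98 (SE 0.115, edgeR adjusted p = 2.53e-06), just inside the fold limit for a call. It passed the limit at -1.05 with DESeq2 and with RLE scaling, at -1.004 with upper-quartile scaling, and at -1.15 and -1.03 without KO UT replicate 3 and WT UT replicate 2. The median of all genes in this comparison was -0.07 with DESeq2 and with RLE scaling, against 0.00 with TMM scaling. After LPS the log2 difference of Slc7a2 was -0.06, with a 95% interval of -0.18 to 0.05 (edgeR adjusted p = 0.528). The LPS response was larger in KO cells by 0.92 (interaction term, SE 0.13, edgeR adjusted p = 7.46e-05).

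Slc7a1 (ENSMUSG00000041313.14, chromosome 5, 148327410 to 148399904, - strand) encodes CAT1, the carrier that most cells keep at a basal level. It measured 9.89, 9.66 and 10.5 CPM in WT UT, 6.68, 7.84 and 7.61 CPM in KO UT, 34.5, 29.4 and 32.6 CPM in WT LPS, and 40.9, 49.5 and 42.7 CPM in KO LPS. The genotypes did not overlap under either treatment, and they stood in opposite order: KO libraries were the lower ones without LPS and the higher ones after it. The log2 difference was -0.44 without LPS (SE 0.0964, edgeR adjusted p = 0.00173) and 0.46 after LPS (SE 0.0828, edgeR adjusted p = 0.000717). LPS raised Slc7a1 3.21-fold in WT and 6.01-fold in KO cells, a difference in log2 response of 0.90 (interaction term, SE 0.127, edgeR adjusted p = 7.29e-05).

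The ratio of the carrier mRNAs per kb of exon is given as a description. Slc7a2 over Slc7a1 was 0.412, 0.380 and 0.382 in WT UT and 0.240, 0.246 and 0.310 in KO UT. After LPS it was 51.7, 57.4 and 50.1 in WT and 39.1, 32.2 and 39.7 in KO. Slc7a1 thus had the higher level per length at rest and Slc7a2 after LPS, and the KO ratios were lower than the WT ratios in both states.

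Nitric oxide synthesis and its cofactor were measured by Nos2 and Gch1. Nos2 (ENSMUSG00000020826.7, chromosome 11, 78920787 to 78960254, + strand) encodes inducible nitric oxide synthase. Without LPS it was near 0, at 11, 4 and 6 counts in WT UT and 2, 0 and 3 counts in KO UT. After LPS it reached 1460, 1261 and 1280 CPM in WT and 865, 883 and 912 CPM in KO, so that every KO LPS library was below every WT LPS library. The log2 difference after LPS was -0.59 (SE 0.0726, edgeR adjusted p = 1.39e-05), and it ranged from -0.63 to -0.52 when 1 library at a time was left out.

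Against so few counts at rest the LPS response of Nos2 is only loosely bounded. The ratio of scaled summed counts of LPS over UT was 8638 in WT (95% counting interval 5650 to 13955) and 19191 in KO (8223 to 59105). The interaction term was not past the threshold (edgeR adjusted p = 0.243). Without LPS the KO to WT ratio was 0.297 (95% counting interval 0.0876 to 0.810), from 5 against 21 counts. Nos2 passed the filter on low counts only through the LPS libraries and is not tested in a fit of the UT groups alone, so no difference at rest is read from it. In the fit of all groups the edgeR adjusted p was 0.0441, and it was 0.0541 with the replicate number as a block, 0.272 without WT UT replicate 1, 0.212 without KO UT replicate 2, 0.0897 without KO UT replicate 1 and 0.0527 without WT UT replicate 3. It was 0.0548, 0.0591 and 0.0518 without KO LPS replicate 1, 2 and 3, which share the estimate of spread.

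Gch1 (ENSMUSG00000037580.9, chromosome 14, 47153895 to 47189413, - strand) encodes GTP cyclohydrolase 1, the first enzyme of tetrahydrobiopterin synthesis, the cofactor of nitric oxide synthase. Its level was 24.2, 23.7 and 24.6 CPM in WT UT, 27.5, 27.3 and 26.4 CPM in KO UT, 297, 364 and 338 CPM in WT LPS, and 280, 288 and 256 CPM in KO LPS. LPS raised it 13.8-fold in WT and 10.2-fold in KO cells. KO libraries were the higher ones without LPS and the lower ones after LPS, the reverse of Slc7a1, and the groups did not overlap in either state.

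The log2 difference of Gch1 without LPS was 0.16 and did not pass the threshold (95% interval 0.02 to 0.31, edgeR adjusted p = 0.115, or 0.0386 without WT LPS replicate 1). After LPS it was -0.28 (SE 0.0661, edgeR adjusted p = 0.00738), and the adjusted p was 0.0658 without WT LPS replicate 2 and 0.0539 without KO LPS replicate 3. The response to LPS was smaller in KO by 0.44 (interaction term -0.44, SE 0.0981, edgeR adjusted p = 0.00345).

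Citrulline recycling was measured by Ass1 (ENSMUSG00000076441.9, chromosome 2, 31470207 to 31520672, + strand), which encodes argininosuccinate synthase, the step that begins the return of citrulline to arginine. It measured 7.58, 7.72 and 6.53 CPM in WT UT, 3.90, 2.82 and 3.06 CPM in KO UT, 179, 173 and 160 CPM in WT LPS, and 152, 167 and 155 CPM in KO LPS. The UT groups were well apart and the LPS groups overlapped. Without LPS the log2 difference was -1.16 (SE 0.108, edgeR adjusted p = 1.49e-07), and after LPS it was -0.11 (95% interval -0.25 to 0.02, edgeR adjusted p = 0.304).

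LPS raised Ass1 23.5-fold in WT and 48.4-fold in KO cells. The difference in log2 response was 1.04 (interaction term, SE 0.129, edgeR adjusted p = 1.74e-05), a call that ended without KO UT replicate 2 (0.96, edgeR adjusted p = 0.000182), without WT UT replicate 2 (0.9997, edgeR adjusted p = 0.000158) and without KO UT replicate 3 (0.999, edgeR adjusted p = 0.000127) as the value moved inside the fold limit.

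Polyamine synthesis was measured by Odc1 (ENSMUSG00000011179.7, chromosome 12, 17544794 to 17551505, + strand), which encodes ornithine decarboxylase, the entry step from ornithine to the polyamines. It measured 72.5, 74.4 and 69.0 CPM in WT UT, 93.5, 95.2 and 95.5 CPM in KO UT, 60.2, 62.7 and 55.9 CPM in WT LPS, and 64.3, 66.6 and 63.2 CPM in KO LPS. KO libraries were above WT libraries in both states, by a wide margin only without LPS. The log2 difference was 0.40 without LPS (SE 0.0544, edgeR adjusted p = 1.47e-05) and 0.12 after LPS (95% interval 0.01 to 0.23, edgeR adjusted p = 0.176).

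With LPS, Odc1 fell by 0.27 on the log2 scale in WT (edgeR adjusted p = 0.000171) and fell by 0.55 in KO cells (edgeR adjusted p = 1.11e-08). Under upper-quartile scaling, which moved the median of all genes to -0.14 in WT and -0.24 in KO cells, it fell by 0.46 and by 0.73. The interaction term was -0.28 (SE 0.0787, edgeR adjusted p = 0.0185) and missed the threshold at -0.20 with DESeq2 (adjusted p = 0.0653) and RLE scaling (edgeR adjusted p = 0.0817), at -0.25 with no filter on low counts (edgeR adjusted p = 0.0987), and without WT LPS replicate 2 (-0.24, edgeR adjusted p = 0.0695), WT UT replicate 3 (-0.25, edgeR adjusted p = 0.0669) or KO LPS replicate 3 (-0.26, edgeR adjusted p = 0.0537). The median interaction term of all genes was 0.07 with DESeq2 and with RLE scaling, against -0.01 with TMM scaling.

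Itaconate synthesis was measured by Acod1 (ENSMUSG00000022126.6, chromosome 14, 103046977 to 103056573, + strand), also known as Irg1, which encodes cis-aconitate decarboxylase. It measured 21.7, 21.8 and 24.0 CPM in WT UT, 11.4, 10.3 and 8.57 CPM in KO UT, 8495, 8054 and 7684 CPM in WT LPS, and 8196, 8321 and 8536 CPM in KO LPS. Without LPS every KO library was below every WT library, and after LPS the groups overlapped. The log2 difference was -1.16 without LPS (SE 0.0748, edgeR adjusted p = 5.15e-10), a 2.24-fold higher level in WT, and 0.05 after LPS (95% interval -0.07 to 0.17, edgeR adjusted p = 0.664).

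LPS raised Acod1 358-fold in WT and 829-fold in KO cells. The difference in log2 response of 1.21 (interaction term, SE 0.0974, edgeR adjusted p = 6.24e-08) was called in the fit of all libraries and in each fit that left out 1 library.

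**Figure D2:**
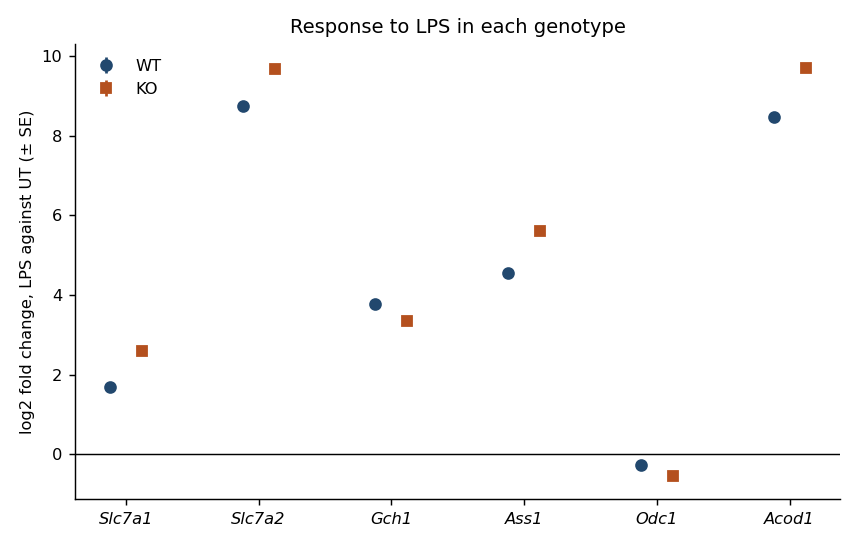
Log2 change with LPS (LPS over UT) in WT and KO cells for 6 of the 7 genes, with 1 marker for each genotype and bars of 1 SE. Nos2 is left out because its UT counts were near 0. The KO marker lies above the WT marker for Slc7a1, Slc7a2, Ass1 and Acod1 and below it for Gch1 and Odc1.

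Between genotypes without LPS, Nos2 is left out of the counts, since it passed the filter only through the LPS libraries. Of the other 6 genes, 2 were called, both lower in KO (Ass1 and Acod1), where 1.82% of all genes were called and 0.799% were called lower. At an edgeR adjusted p below 0.05 and any fold, 5 of the 6 passed, 4 lower and 1 higher (Odc1), against 23.8% of all genes, 9.69% lower and 14.1% higher. Groups did not overlap for 6 of the 6, against 40.8% of all genes. The median log2 difference of the 6 genes was -0.71, against 0.00 over all genes.

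Between genotypes after LPS, 0 of the 7 genes were called with edgeR and 0 with DESeq2, where 1.25% of all genes were called. At an edgeR adjusted p below 0.05 and any fold, 3 passed, against 14.3% of all genes. The same number had an unadjusted p below 0.05, for which no share of all genes was computed. Slc7a1 was higher, as were 7.78% of all genes, and Nos2 and Gch1 were lower, as were 6.54%. Groups did not overlap for 4 of the 7, against 29.1% of all genes. The median log2 difference of the 7 genes was -0.06, against -0.01 over all genes.

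In the interaction of genotype and LPS, Nos2 is again left out for its low counts at rest. Of the other 6 genes, 2 were called, both with the larger response in KO (Ass1 and Acod1), where 2.16% of all genes were called and 0.522% were called higher. At an edgeR adjusted p below 0.05 and any fold, 6 of the 6 passed, against 16.8% of all genes. The response was larger in KO for Slc7a1, Slc7a2, Ass1 and Acod1, and smaller for Gch1 and Odc1, against 7.32% of all genes larger and 9.5% smaller. For Slc7a2, Ass1 and Acod1 the difference lay at rest, where KO was lower, while their levels after LPS overlapped between genotypes.

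**Figure D3:**
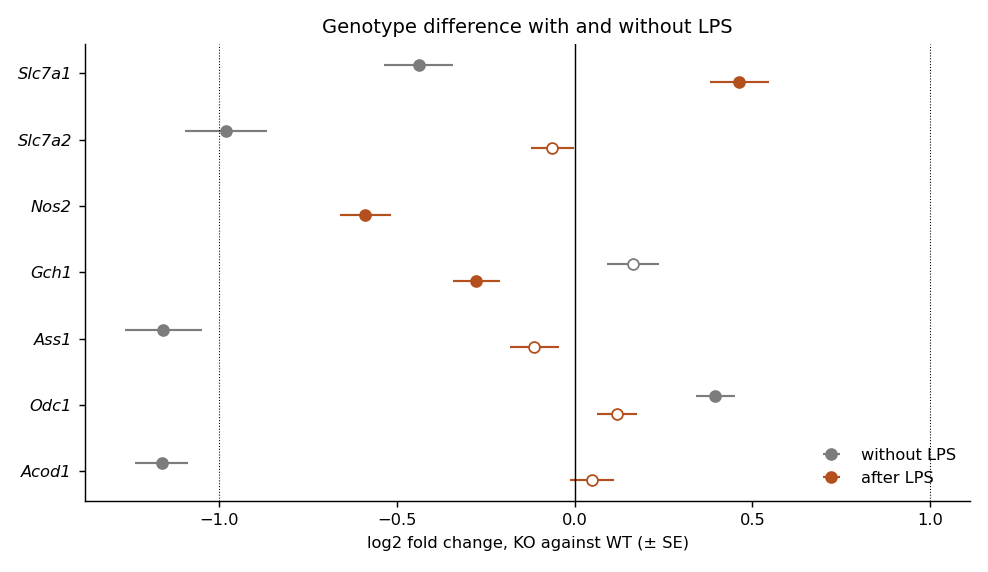
Log2 difference of KO from WT without LPS and after LPS for the 7 genes, with bars of 1 SE, filled markers at an edgeR adjusted p below 0.05 and dotted lines at the fold limit of a call. Nos2 without LPS is left out for its low counts. Acod1 and Ass1 without LPS lie past the lower line at -1.16 each, Slc7a1 lies on opposite sides of 0 in the 2 states, and no marker after LPS passes a line.

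Levels were also ordered among the 7 genes as CPM per kb of exon. In WT LPS the order was Acod1 at 3079 ± 155, Nos2 at 302 ± 24.9, Slc7a2 at 147 ± 6.69, Ass1 at 70.7 ± 3.91, Gch1 at 53.3 ± 5.46, Odc1 at 17.5 ± 1.01 and Slc7a1 at 2.79 ± 0.224 CPM per kb (SD, n = 3). No neighbours overlapped in WT LPS. The order was the same in KO LPS, again with no overlap of neighbours, and there Acod1 was at 3184 ± 65.6 and Nos2 at 201 ± 5.38 CPM per kb (SD, n = 3). Among 12231 protein-coding genes tested, Acod1 ranked 10 from the top in both LPS groups, and Nos2 ranked 168 in WT LPS and 279 in KO LPS.

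At rest Odc1 was the highest of the 7 genes, at 21.1 ± 0.803 CPM per kb in WT UT and 27.8 ± 0.307 CPM per kb in KO UT (SD, n = 3). Acod1 came next in WT UT, at 8.59 ± 0.497 CPM per kb, above Gch1 at 3.86 ± 0.0728 CPM per kb (SD, n = 3). In KO UT these 2 genes overlapped, with Gch1 at 4.33 ± 0.096 and Acod1 at 3.85 ± 0.538 CPM per kb (SD, n = 3). Ass1, Slc7a1, Slc7a2 and Nos2 followed in that order in both groups, with no overlap between neighbours.

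**Figure D4:**
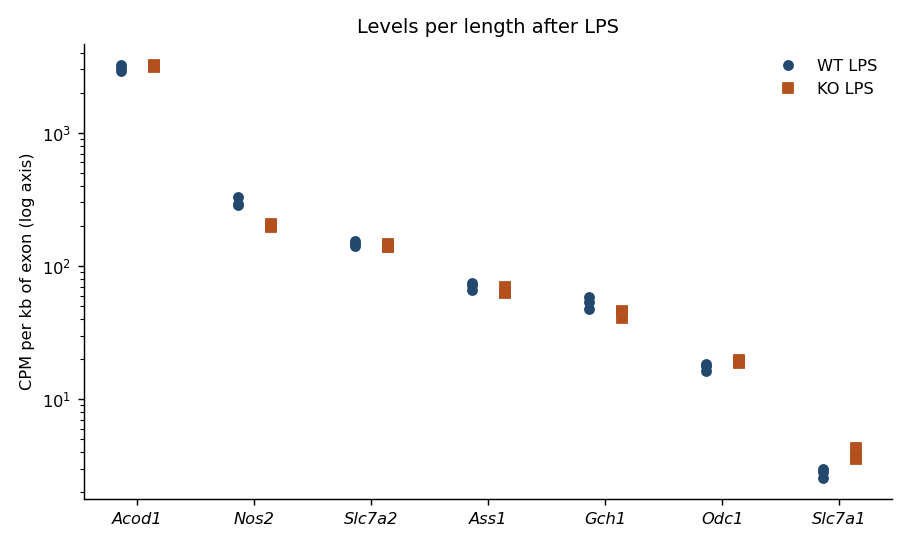
Level of each gene after LPS as CPM per kb of exon on a log axis, with 1 point for each of the 3 libraries in WT LPS and KO LPS. Acod1 is the highest and Slc7a1 the lowest in both groups, and the points of the genotypes do not overlap for Nos2, Gch1, Odc1 and Slc7a1.

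Ratios per length were computed for each library after LPS, as a description. Acod1 over Nos2 was 9.79, 10.7 and 10.1 in WT LPS and 15.9, 15.8 and 15.7 in KO LPS. Nos2 over Slc7a2 was 2.14, 1.95 and 2.05 in WT LPS and 1.41, 1.45 and 1.41 in KO LPS. The first ratio was higher and the second lower in every KO LPS library than in any WT LPS library.

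The genes with the most similar pattern were taken as the 2 nearest by Euclidean distance between centred log2 CPM values over the 12 libraries, among 9085 protein-coding genes with a mean of at least 5 CPM. Slc7a2 and Acod1 were nearest to each other, at a distance of 0.752, followed by Ifi205 for Slc7a2 (0.954) and Hdc for Acod1 (1.17). Ass1 was nearest to Enpp4 (0.528) and Ms4a4c (0.565), Gch1 to Tnip3 (0.416) and Nfkbia (0.448), and Slc7a1 to Sema4a (0.438) and Myadm (0.454). Odc1 was nearest to Htra2 (0.209) and Cd63 (0.222). Nos2 had no close neighbour, and the nearest were U90926 (3.55) and Lipg (3.76).

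The surrounding pathways were read from 8 lists of 73 other genes, of which 61 were tested. In WT cells LPS gave 20 calls among them, 6 higher and 14 lower, and in KO cells 22, 7 higher and 15 lower. These counts stand beside 37.8% of all genes called in WT (19.1% higher and 18.7% lower) and 37.0% in KO cells (17.7% higher and 19.3% lower), which is also the background for each list below. Their median log2 change was -0.37 in WT and -0.41 in KO cells.

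Of 5 tested genes of nitric oxide synthesis, 0 were called higher and 2 lower with LPS in WT cells and 0 higher and 3 lower in KO cells, and of 4 tested genes of its cofactor 0 were called higher and 1 lower in each. Nostrin, which moves endothelial nitric oxide synthase within the cell, fell by 2.82 on the log2 scale in WT cells (edgeR adjusted p = 4.32e-15). Gucy1b1, a subunit of the nitric oxide receptor guanylate cyclase, had 16, 13 and 10 counts in WT UT and 4, 1 and 1 counts in WT LPS, where it was called lower at -1.73 (edgeR adjusted p = 0.0381). In KO cells its groups overlapped and the log2 change was -0.50 (edgeR adjusted p = 0.414). Of the cofactor list, Spr, sepiapterin reductase, fell by 1.34 (edgeR adjusted p = 1.96e-10), opposite to Gch1, the first enzyme of the same route. Slc25a13, the mitochondrial aspartate-glutamate carrier, fell by 1.71 and was the only call among 3 tested genes of the urea cycle list.

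Of the other amino acid carriers, 4 of 7 tested were called, all higher, in each genotype, where 19.1% of all genes were called higher in WT and 17.7% in KO cells. In WT cells the log2 changes were 6.45 for Slc7a11, the cystine-glutamate exchanger, 2.22 for Slc7a5, a carrier of large neutral amino acids, 1.46 for Slc7a7, which exports cationic amino acids, and 1.33 for Slc3a2, the heavy chain they share. Without LPS 3 of the 7 passed the adjusted p threshold between genotypes, against 23.8% of all genes (14.1% higher and 9.69% lower). Slc7a7 and Slc3a2 were higher in KO, by 0.37 (edgeR adjusted p = 0.00155) and 0.14 (edgeR adjusted p = 0.049), and Slc7a11 was lower. Slc7a11 measured 12.8, 12.5 and 12.9 CPM in WT UT and 6.07, 7.84 and 6.85 CPM in KO UT (log2 difference -0.88, edgeR adjusted p = 1e-07), and after LPS the difference was -0.16 (95% interval -0.28 to -0.03, edgeR adjusted p = 0.0999), with every KO LPS library below every WT LPS library. Slc7a7 and Slc7a5 were higher in KO LPS than in WT LPS, by 0.64 (edgeR adjusted p = 6.61e-06) and 0.65 (edgeR adjusted p = 0.000699).

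Among 13 polyamine genes 1 was called higher and 1 lower in each genotype, where 37.8% of all genes were called in WT and 37.0% in KO cells. Smox, spermine oxidase, rose by 1.72 and Paox, an oxidase of acetylated polyamines, fell by 2.46 in WT cells. Smox was 185, 200 and 202 CPM in WT LPS and 139, 151 and 140 CPM in KO LPS, a log2 difference of -0.44 (edgeR adjusted p = 8.33e-05). It was 1 of 4 polyamine genes that passed the adjusted p threshold between genotypes after LPS, at any fold. Of all genes 14.3% passed, 7.78% higher and 6.54% lower. Sat1 was also lower in KO (-0.23, edgeR adjusted p = 0.00323), and Amd1 and Azin1 were higher (both 0.32, edgeR adjusted p = 0.0256 and 0.00876). Without LPS Sat1 was higher in KO (0.15, edgeR adjusted p = 0.0312), and Smox, Amd1 and Azin1 did not pass the threshold. Of 7 tested genes of ornithine, proline and glutamate 3 were called in WT cells, all lower, and 4 in KO cells, 3 lower and 1 higher. Glul (glutamine synthetase), Prodh and Aldh4a1 (proline breakdown) fell by 2.52, 1.74 and 1.50 in WT cells, and Aldh18a1, an enzyme of proline synthesis, was the higher call in KO cells (1.10, edgeR adjusted p = 1.52e-09).

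Of 16 genes of aconitate and itaconate handling 4 were called lower and 0 higher in WT cells, where 18.7% of all genes were called lower. They fell by 2.51 for Idh1, 1.40 for Idh2, 1.21 for Suclg2 and 1.18 for Aco1, and 3 were called lower in KO cells, against 19.3% of all genes. Idh1 and Idh2 are NADP-dependent isocitrate dehydrogenases, Suclg2 a subunit of succinyl-CoA ligase and Aco1 the cytosolic aconitase.

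In the list of alternative activation genes, Il4ra, the receptor chain for interleukin-4, rose by 3.44 in WT cells, while Klf4, a transcription factor, and Mrc1, the mannose receptor, fell by 3.04 and 1.39. Between genotypes Mrc1 was on the higher side in KO, at 111, 112 and 113 CPM in WT UT against 180, 188 and 194 CPM in KO UT, and at 44.0, 43.2 and 41.0 CPM in WT LPS against 74.7, 74.9 and 81.2 CPM in KO LPS. Its log2 differences were 0.74 without LPS (edgeR adjusted p = 3.93e-09) and 0.85 after LPS (edgeR adjusted p = 3.33e-09), below the fold limit of a call. Chil3 was 0.87 higher without LPS (edgeR adjusted p = 0.00159) and 0.86 after LPS (edgeR adjusted p = 0.0203) in KO. Klf4 was lower in KO without LPS, by a log2 difference of -0.27 (edgeR adjusted p = 0.0338), and the difference after LPS was 0.01 (edgeR adjusted p = 0.972). The remaining tested genes of this list passed the threshold in neither state. Their log2 differences without and after LPS were -0.02 and 0.06 for Il4ra (edgeR adjusted p = 0.834 and 0.481), -0.15 and -0.03 for Egr2 (edgeR adjusted p = 0.519 and 0.942), and 0.62 and -0.07 for Cd163 (edgeR adjusted p = 0.139 and 0.925). The genotype values of the carriers, the polyamine genes and the genes of this list, and the KO value of Aldh18a1, were chosen for mention after their values had been seen.

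Between genotypes without LPS 1 of the 61 genes was called, Nos3, the endothelial nitric oxide synthase, at 14, 13 and 21 counts in WT UT and 34, 29 and 31 counts in KO UT (edgeR adjusted p = 0.0435), where 1.82% of all genes were called. The call ended with the replicate number as a block and in 7 of the 12 fits that left out 1 library. At any fold 25 passed the adjusted p threshold, 22 higher and 3 lower in KO, against 23.8% of all genes (14.1% higher and 9.69% lower). After LPS 0 of the 61 were called, with edgeR or DESeq2, where 1.25% of all genes were called with edgeR. At any fold 15 passed the adjusted p threshold of edgeR, of which 13 were higher and 2 lower in KO, against 14.3% of all genes (7.78% higher and 6.54% lower), and 25 had an unadjusted p below 0.05. In the interaction 0 were called with edgeR or DESeq2, against 2.16% of all genes with edgeR, 16 passed at any fold, against 16.8%, and 21 had an unadjusted p below 0.05. No share of all genes was computed at that unadjusted limit, so the 25 and 21 have no background here.

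**Figure D5:**
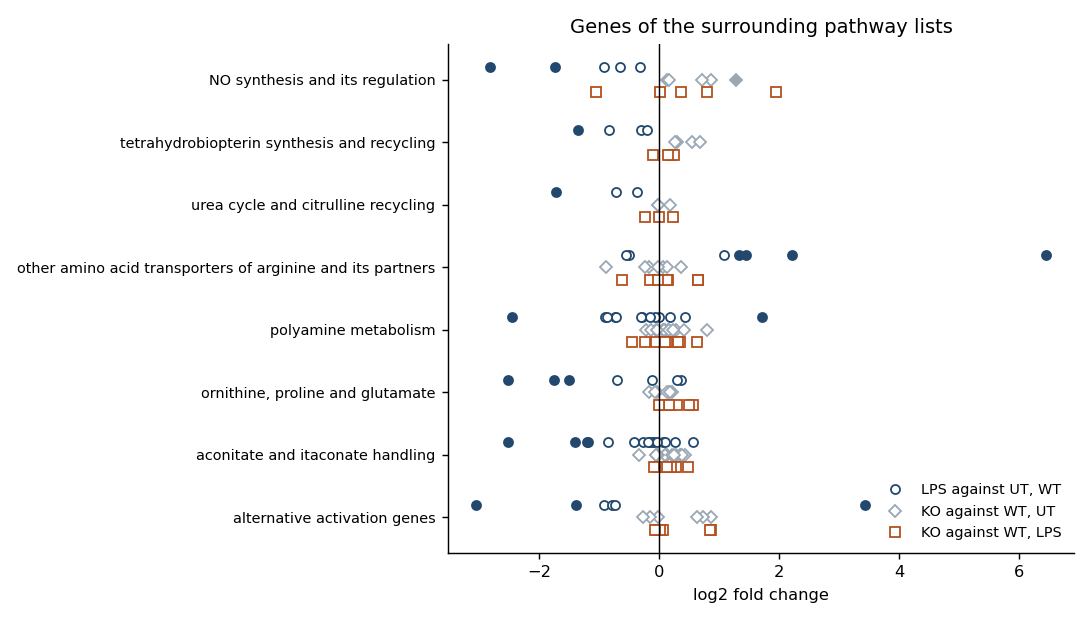
Log2 fold changes of the tested genes of the 8 surrounding lists, 1 marker for each gene, for LPS against UT in WT cells (circles), KO UT against WT UT (diamonds) and KO LPS against WT LPS (squares), filled where called. Calls with LPS lie mostly on the lower side, 14 against 6, the higher ones being 4 amino acid carriers, Smox and Il4ra, and between genotypes 1 diamond (Nos3) and no square is filled.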

How the data were processed

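BMDM libraries of 4 groups (WT UT, KO UT, WT LPS, KO LPS; 3 each) were grouped by genotype and treatment in the labels. The deposited table holds raw counts per gene, which the authors made from paired-end reads of a stranded kit, aligned to GRCm38. The submitters' processing notes name FastQC 0.11.9, HISAT2 2.1.0, SAMtools 1.17 and featureCounts 2.0.0. The annotation release, strand setting and treatment of multi-mapping reads are not given in the sources used here, so reads of overlapping genes can be misassigned. Symbols came from GENCODE on GRCm38, which matched 48144 of 48526 identifiers (unmatched, 0.122% of counts).

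Genes kept by filterByExpr (minimum count 10, minimum total 15) numbered 15523 and held 99.96% of counts. They were tested in 1 model of 4 group means by edgeR 4.0.16 (quasi-likelihood, with limma 3.58.1 in R 4.3.3), with TMM scaling and Benjamini-Hochberg adjustment over all genes tested. Calls followed the thresholds of the study, a log2 fold change above 1 in size with an adjusted p below 0.05. The interaction is the LPS response in KO minus that in WT. Intervals of log2 differences are 95% intervals from the SE. Folds of Nos2 against UT come from summed counts with exact 95% intervals, which cover counting error only. A prior count of 2 entered the log2 CPM used for nearest genes. Python 3.11.15, scipy 1.17.1 and matplotlib 3.10.9 made the tables and figures.

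The 7 genes, the 8 lists and the markers were chosen with earlier results of these data known, and a few genes of the same rule and lists are not reported here. Named genes are the 7, Tnf, the markers, the nearest genes, the up to 4 genes of each list with the largest change among those called in WT LPS against WT UT, and any list gene called between genotypes or in the interaction; Chil3, Egr2, Cd163, Sat1, Amd1, Azin1 and Aldh18a1 are named outside this rule. Libraries are paired by label, since each carries a batch number identical to its replicate number. Over 18 pairs of same-numbered libraries, deviations from group means correlated at -0.0631 to 0.0373, with 0 above 0.1. Replicates differed by more than counting noise (chi-square per degree of freedom 3.81 to 5.35 in WT UT, 7.30 to 14.0 in KO UT, 12.4 to 46.3 in WT LPS and 5.21 to 8.66 in KO LPS). Alternatives were DESeq2 1.42.0, upper-quartile and RLE scaling, no filter, a minimum mean CPM of 1, leaving out the 10 most-counted genes, protein-coding genes only, a replicate block, the compared groups only, any fold change, and leaving out 1 library at a time.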

Additional observations from a re-analysis of the deposited data

Results flagged for a closer look

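For 6 genes the genotypes differed in their response to LPS by the test of the difference itself, the interaction term of the edgeR fit (log2 response in KO minus that in WT). The values were 0.90 for Slc7a1, 0.92 for Slc7a2, 1.04 for Ass1 and 1.21 for Acod1, with the larger response in KO, and -0.44 for Gch1 and -0.28 for Odc1, with the smaller response in KO. For Slc7a2, Ass1 and Acod1 the libraries of the genotypes overlapped after LPS and not without it. For Slc7a1 the genotype differences passed the threshold in both states, in opposite directions. For Gch1 the difference did not pass without LPS (edgeR adjusted p = 0.115), and the one after LPS lost the threshold without WT LPS replicate 2 or KO LPS replicate 3. The term of Odc1 lost the threshold with DESeq2 (adjusted p = 0.0653), RLE scaling (edgeR adjusted p = 0.0817) and no filter on low counts (edgeR adjusted p = 0.0987), and when WT UT replicate 3, WT LPS replicate 2 or KO LPS replicate 3 was left out.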

How the results depend on the processing

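No log2 value of the 7 genes changed sign under any alternative. Of these values, 710 kept their side of the adjusted p threshold, 1 gained it and 16 lost it, all for Nos2, Gch1 or Odc1. Among the 7 genes, the calls with LPS stayed at 6 in both genotypes except at any fold (7). Between KO LPS and WT LPS the 0 calls became 3 at any fold and stayed at 0 when 1 library was left out. Between KO UT and WT UT the 3 calls (Ass1, Acod1 and Nos2, which passed the filter only through the LPS libraries) became 4 with DESeq2, RLE or upper-quartile scaling (adding Slc7a2), 6 at any fold, 2 with the replicate block, 2 with the compared groups only, where Nos2 is not tested, and 2 to 4 with 1 library left out (4 without KO UT replicate 3 or WT UT replicate 2). In the interaction the 2 calls became 6 at any fold and 1 to 2 with 1 library left out (1 without WT UT replicate 2 or KO UT replicate 2, and Slc7a2 in place of Ass1 without KO UT replicate 3). Among the 61 list genes, calls at any fold were 15 between KO LPS and WT LPS, 25 between KO UT and WT UT, 46 and 50 with LPS in WT and KO, and 16 in the interaction. The any-fold share of all genes was not computed for the LPS comparisons. The 1 call between KO UT and WT UT became 0 with the replicate block and 0 at a mean CPM of at least 1, where Nos3 is not tested. With 1 library left out these counts were 0 to 1 for KO LPS against WT LPS (1 without KO LPS replicate 1), 0 to 1 for KO UT against WT UT, 19 to 20 and 22 to 25 with LPS, and 0 to 1 in the interaction (1 without KO LPS replicate 3). Among the 7 genes the replicate block changed no call other than that of Nos2 without LPS. The causes of these changes were not tested. Nos2 without LPS had 0 to 11 counts per library, and the effect of depth on it was not tested.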
